A study of Homo sapiens with 6 samples.

Results

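The mRNAs of the Notch pathway were examined in A549 cells, a human lung adenocarcinoma line, with and without the MIR21 gene. The group was set by a list of gene symbols and comprised 10 of the 58174 listed genes. These were the receptors NOTCH1, NOTCH2 and NOTCH3, the ligands JAG1, JAG2 and DLL1, the DNA-binding partner RBPJ, and the effectors HES1, HES4 and HEY1. PolyA-selected RNA was sequenced from 3 libraries of parental cells (Ctrl) and 3 libraries of cells lacking MIR21 (MIR21-KO), all harvested 48 h after the cells had been seeded. Both groups were grown in the same serum-containing medium, and only the MIR21-KO cells had been transfected with plasmids for Cas9 and a guide RNA pair and sorted as single fluorescent cells. How many clones gave the 3 MIR21-KO libraries is not stated, and Ctrl is the parental population, so that properties of a clone cannot be told apart from those of the deletion.

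Notch receptors are transmembrane proteins that are activated by ligands on neighbouring cells. Ligand binding exposes the receptor to ADAM proteases and then to gamma-secretase, which releases the intracellular domain into the nucleus. There the domain joins RBPJ and Mastermind proteins at target promoters, foremost those of HES and HEY genes, which encode transcriptional repressors. In the lung, Notch signaling directs the choice between secretory, ciliated and neuroendocrine fates of airway cells, and JAG1 has been reported as a target of miR-21.

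MiR-21-5p, like other microRNAs, pairs with 3′ UTRs through its seed, bases 2 to 8. The mature miR-21-5p as listed by RefSeq (GRCh38.p14, chromosome 17, 59841273 to 59841294, plus strand) is shown with the seed in capitals.
hsa-miR-21-5p: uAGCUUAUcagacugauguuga
The longest annotated 3′ UTR of each gene (GENCODE 29, GRCh38) was searched for matches to this seed. An 8mer site is ATAAGCTA, a 7mer-m8 site is ATAAGCT, a 7mer-A1 site is TAAGCTA and a 6mer site is TAAGCT, each searched on the transcribed strand and counted under its longest class. A match was present in 4 of the 10 Notch genes, and 2 of them, JAG1 and RBPJ, had at least a 7mer. Over the 11646 tested genes with a 3′ UTR, 27.9% had a match of any class, 14.4% had an 8mer or 7mer and 2.87% had an 8mer. The sites of JAG1 and RBPJ and the 6mer matches of both NOTCH2 and NOTCH3 are shown with their flanks, with the seed match in capitals, because they show which members hold a match and of which class.
JAG1 8mer, chr20:10638246-10638275, minus strand: ggagtattctaATAAGCTAgttgaatactt
RBPJ 8mer, chr4:26433124-26433153, plus strand: acttctctcttATAAGCTAatcctgcctca
RBPJ 7mer-m8, chr4:26431391-26431419, plus strand: ttgtatattgtATAAGCTttagtaaaagg
NOTCH2 6mer, chr1:119994647-119994674, minus strand: gttaaatgcttTAAGCTgtttgggttaa
NOTCH3 6mer, chr19:15159439-15159466, minus strand: gtcacctgactTAAGCTgagccaatcag
RBPJ had a further 6mer, and NOTCH1, JAG2, DLL1, HES1, HES4 and HEY1 had no match. A match describes the sequence only and does not show binding.

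The values were FPKM, that is sequenced fragments scaled per kilobase of gene and by depth, which relates them to gene length and to a library size set by the authors. The recovered reads summed to between 10631667 and 14345209 per library, and 1 read on a gene of 1 kb corresponded to 0.0731 to 0.0930 FPKM. Differences were fitted with limma across the 16006 genes that averaged 0.5 FPKM or more, on log2(FPKM + 0.1), and called at an FDR under 0.01. By that rule 2568 genes were called, 16.0% of the genes tested, with 7.66% higher and 8.38% lower in MIR21-KO. MIR21 itself was at 0 in every library, as is usual for microRNAs in polyA libraries, and thus did not check the labels. VMP1, the gene that overlaps the MIR21 locus, rose from 75.1 ± 3.83 to 143 ± 7.18 FPKM (FDR 0.000473 by limma), where ± is the SD over n = 3 libraries for all FPKM values and shares and the SE for all log2 fold changes. The epithelial keratins KRT7, KRT8, KRT18 and KRT19 were abundant in both groups. KRT18 was at 673 ± 25.3 FPKM in Ctrl and 422 ± 82.2 FPKM in MIR21-KO (FDR 0.0153 by limma, not called). Of the same list, EPCAM was low at 0.389 to 1.65 FPKM over the 6 libraries, and CDH1 was lower in MIR21-KO, as given below. The surfactant genes SFTPA1, SFTPB and SFTPC were at or near 0, so that the alveolar type 2 character ascribed to the line was not visible in those 3 markers. NKX2-1, also on the alveolar type 2 list, was not found under that symbol. A further marker of that list, the lipid transporter ABCA3, was at 4.72 to 5.43 FPKM in Ctrl and at 6.52 to 7.29 FPKM in MIR21-KO (FDR 0.0126 by limma, not called). Blood cell and endothelial markers reached at most 0.684 FPKM and 0.0467 FPKM, respectively, for any 1 gene.

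Of the 10 Notch genes, 8 passed the expression filter and 2 of these were called, namely HES1, which was higher, and NOTCH1, which was lower in MIR21-KO. This was 25.0% of the 8 tested, against 16.0% of all genes tested and 19.7% of the protein-coding genes among them. At an FDR under 0.05, where 32.0% of all genes were called, 4 of the 8 were called with HES4 and JAG2 added. Groups did not overlap for 4 of the 8, NOTCH1, JAG2, HES1 and HES4, and for 48.1% of all genes tested, with 22.8% higher and 25.2% lower in MIR21-KO. The median log2 fold change of the 8 was 0.17, with 4 positive and 4 negative values, compared to -0.02 over all genes. DLL1 and HEY1 lay under the filter and are described by their reads. The count of 2 fell to 1, HES1, without Ctrl replicate 1, 2 or 3 or MIR21-KO replicate 2.

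**Figure D1:**
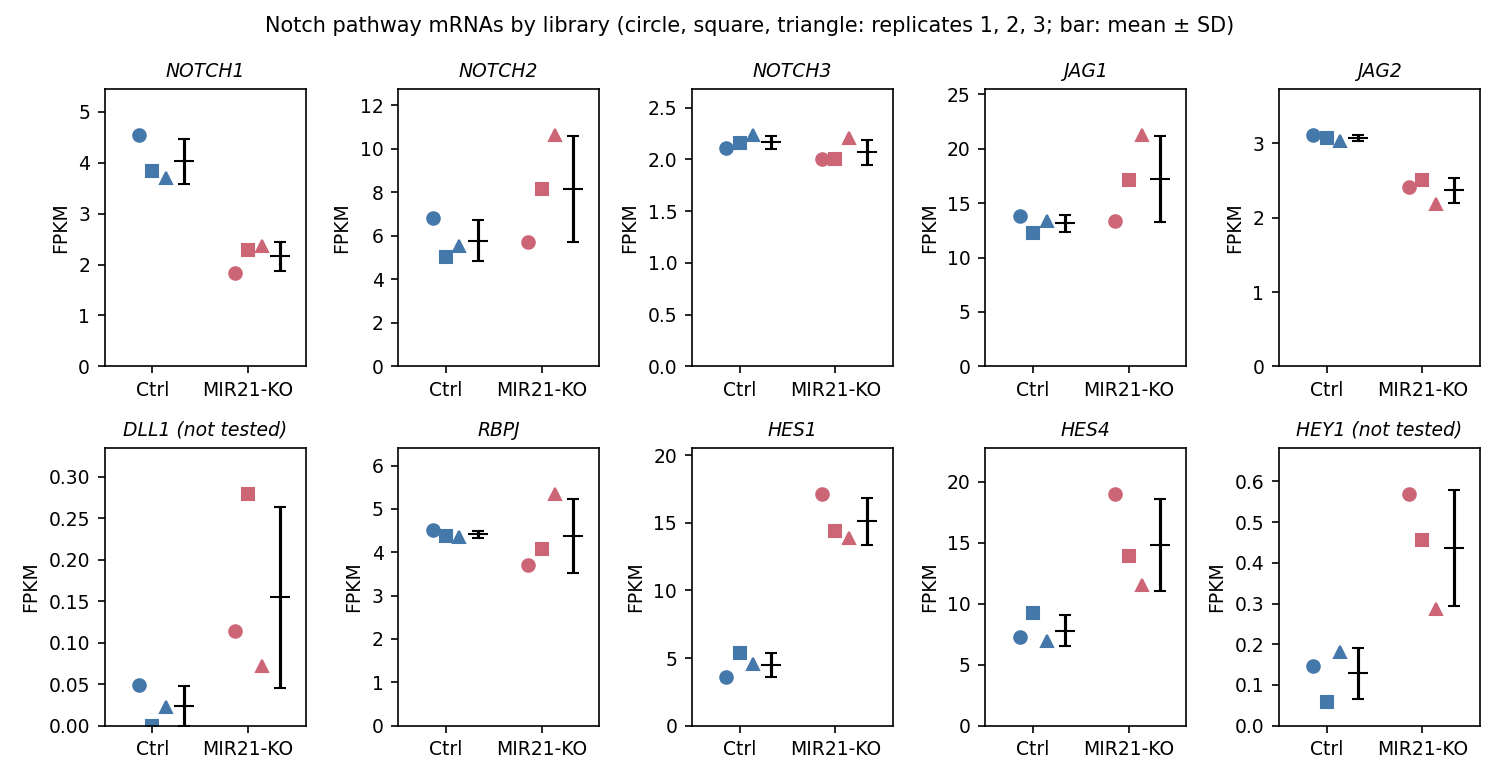
FPKM (vertical axis, from 0, a scale of its own in each panel) of the 10 Notch genes in the 3 Ctrl and 3 MIR21-KO libraries, where circles, squares and triangles are replicates 1, 2 and 3 and bars give the mean ± SD. HES1 in MIR21-KO lay between 13.8 and 17.1, above all Ctrl values of 3.58 to 5.37, and NOTCH1 in MIR21-KO lay between 1.83 and 2.36, below all Ctrl values of 3.71 to 4.54.

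Among the receptors, NOTCH1 (ENSG00000148400, chromosome 9, 136494433 to 136545786, minus strand, GRCh38) was measured at 4.54, 3.83 and 3.71 FPKM in Ctrl replicates 1 to 3 and at 1.83, 2.29 and 2.36 FPKM in MIR21-KO replicates 1 to 3. All MIR21-KO values were below all Ctrl values. The log2 fold change was -0.87 ± 0.146 (SE; 95% interval -1.22 to -0.52), which is 0.547 of the Ctrl level, at an FDR of 0.00547 by limma and on 246 to 571 reads per library. NOTCH1 therefore fell by a margin larger than the replicate spread, but the FDR rose above 0.01 without any one of the Ctrl replicates (0.0212 to 0.0269) and without MIR21-KO replicate 2 (0.0238). In bulk RNA, a lower value in every cell cannot be told apart from fewer cells that express the gene.

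NOTCH2 (ENSG00000134250, chromosome 1, 119911553 to 120069626, minus strand), the most abundant receptor mRNA, was at 6.83, 5.01 and 5.52 FPKM in Ctrl and at 5.73, 8.14 and 10.6 FPKM in MIR21-KO. MIR21-KO replicates 2 and 3 lay above all Ctrl libraries and MIR21-KO replicate 1 lay among them. A log2 fold change of 0.46 ± 0.232 was not called (95% interval -0.10 to 1.01, FDR 0.179 by limma). NOTCH2NL, a near copy of part of NOTCH2 that could share its reads, was at 0.188 to 0.754 FPKM over the 6 libraries, so the assignment of reads between both genes is uncertain.

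NOTCH3 (ENSG00000074181, chromosome 19, 15159038 to 15200981, minus strand) was at 2.11, 2.16 and 2.23 FPKM in Ctrl and at 2.0, 2.0 and 2.21 FPKM in MIR21-KO. The groups overlapped and no change was called, with a log2 fold change of -0.06 ± 0.119 and a 95% interval of -0.35 to 0.22 (FDR 0.714 by limma). NOTCH4, the remaining receptor of the family, was close to absent with at most 5 reads in any library.

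The 4 receptor mRNAs summed to 12.0 ± 1.32 FPKM in Ctrl and 12.4 ± 2.83 FPKM in MIR21-KO (exact permutation test, two-sided, p = 0.9, n = 3 per group). NOTCH2 made up 50.6, 45.6 and 48.0% of summed receptor FPKM in Ctrl and 59.9, 65.3 and 69.7% in MIR21-KO. All MIR21-KO shares of NOTCH2 were above all Ctrl shares, with a difference of 16.9 percentage points between the means (exact permutation test, two-sided, p = 0.1, the smallest that 3 against 3 libraries can give). The share of NOTCH1 was 33.6 ± 1.27% in Ctrl and 17.7 ± 1.89% in MIR21-KO without overlap (exact permutation p = 0.1), whereas that of NOTCH3 was 18.2 ± 2.25% and 17.1 ± 3.34% (exact permutation p = 0.9). With 3 libraries per group these tests cannot reach 0.05.

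**Figure D2:**
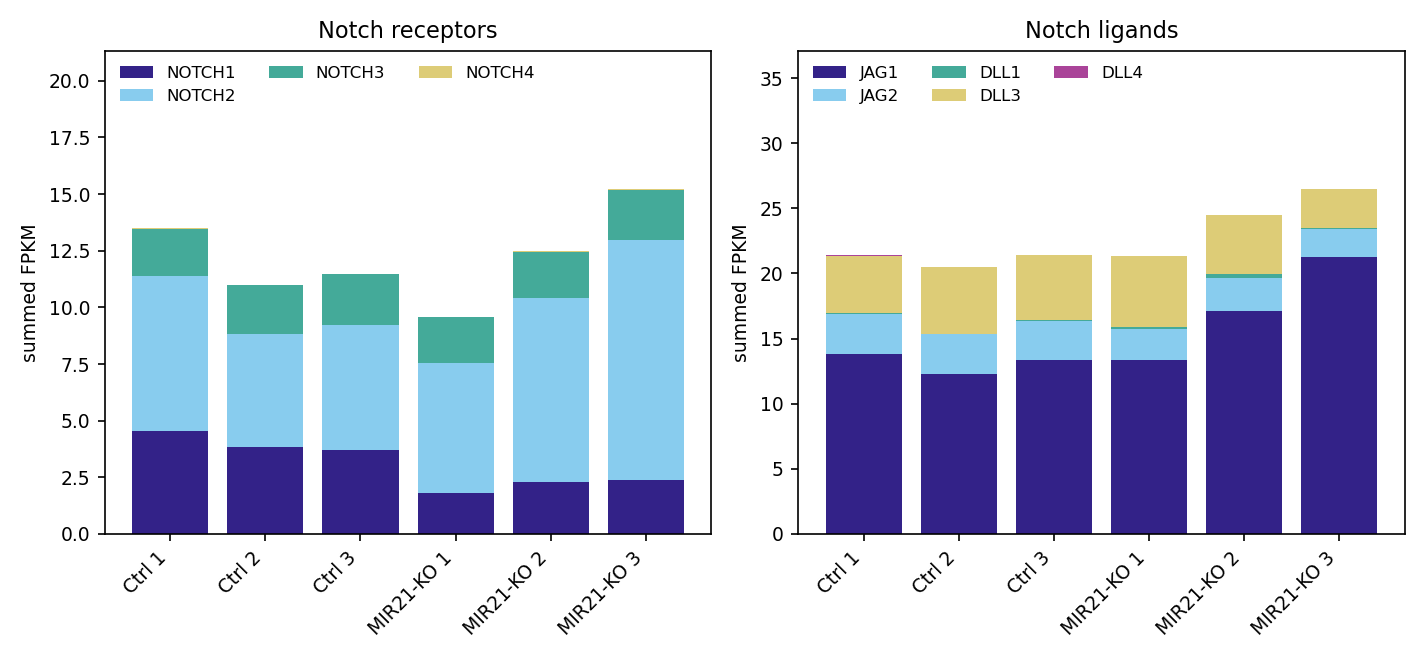
Summed FPKM (vertical axis, from 0) of the Notch receptor mRNAs (left) and ligand mRNAs (right) in each library, with each gene as a colored segment of the bar. NOTCH2 filled 45.6 to 50.6% of the receptor bar in Ctrl and 59.9 to 69.7% in MIR21-KO, and JAG1 filled 60.0 to 64.4% of the ligand bar in Ctrl and 62.5 to 80.2% in MIR21-KO.

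Of the ligands, JAG1 (ENSG00000101384, chromosome 20, 10637684 to 10673999, minus strand) had the highest mean FPKM of all 10 genes in both groups. It was at 13.8, 12.3 and 13.3 FPKM in Ctrl and at 13.3, 17.2 and 21.2 FPKM in MIR21-KO. MIR21-KO replicate 1 fell within the Ctrl range, and replicates 2 and 3 exceeded it. The log2 fold change of 0.37 ± 0.165 was not called (95% interval -0.03 to 0.76, FDR 0.139 by limma), on 1127 to 2351 reads per library. The interval spans a decrease of 0.03 and an increase of 0.76 on the log2 scale. In the 20 alternative analyses the log2 fold change of JAG1 was between 0.20 and 0.54 with FDRs of 0.0167 to 0.3003, and it was called in none of them. An antisense gene over JAG1 was at 0.459 to 1.04 FPKM, and because the strand setting of the counting is not given in the sources used here, its reads may be mixed with those of JAG1.

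JAG2 (ENSG00000184916, chromosome 14, 105140981 to 105168824, minus strand) was at 3.11, 3.07 and 3.03 FPKM in Ctrl and at 2.41, 2.50 and 2.18 FPKM in MIR21-KO. All MIR21-KO values were below all Ctrl values. Its log2 fold change was -0.36 ± 0.110 (95% interval -0.63 to -0.10), with an FDR of 0.0441 by limma that misses the threshold of 0.01. DLL1 (ENSG00000198719, chromosome 6, 170282206 to 170306565, minus strand) was barely detected, with 2, 0 and 1 reads in Ctrl and 5, 11 and 3 reads in MIR21-KO. These correspond to at most 0.0487 FPKM in Ctrl and 0.0717 to 0.279 FPKM in MIR21-KO, and without the expression filter DLL1 had an FDR of 0.181 by limma. FAM120B, which overlaps DLL1 on the opposite strand, was at 2.57 to 3.44 FPKM, and DLL1 reads may belong to it.

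The canonical ligands JAG1, JAG2, DLL1, DLL3 and DLL4 summed to 21.1 ± 0.548 FPKM in Ctrl and 24.1 ± 2.59 FPKM in MIR21-KO (exact permutation test, two-sided, p = 0.3, n = 3 per group). JAG1 contributed 62.3 ± 2.20% of that sum in Ctrl and 70.9 ± 8.89% in MIR21-KO, where the ranges overlapped (exact permutation p = 0.2). The difference of 8.59 percentage points dropped to 3.94 without MIR21-KO replicate 3. JAG2 contributed 14.6 ± 0.419% and 9.91 ± 1.55% without overlap (exact permutation p = 0.1). The remainder was almost entirely DLL3, an inhibitory ligand of neuroendocrine cells, with 22.9 ± 2.38% and 18.6 ± 7.20% (exact permutation p = 0.5).

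RBPJ (ENSG00000168214, chromosome 4, 26163455 to 26435131, plus strand), through which all receptors act on DNA, was at 4.51, 4.37 and 4.36 FPKM in Ctrl and at 3.71, 4.07 and 5.33 FPKM in MIR21-KO. MIR21-KO replicates 1 and 2 lay below all Ctrl libraries and replicate 3 lay above them. The log2 fold change was -0.03 ± 0.145 (95% interval -0.38 to 0.31, FDR 0.893 by limma), and its sign turned without MIR21-KO replicate 1 (0.08) or 2 (0.01). The RBPJ pseudogenes and RBPJL were listed at 0 in all libraries.

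Among the effectors, HES1 (ENSG00000114315, chromosome 3, 194136145 to 194138732, plus strand), a basic helix-loop-helix repressor and the best known Notch target, was at 3.58, 5.37 and 4.54 FPKM in Ctrl. In MIR21-KO it was at 17.1, 14.4 and 13.8 FPKM. Every MIR21-KO library was above every Ctrl library, with a wide gap between the groups. The rise in HES1 was 1.74 ± 0.162 on the log2 scale (95% interval 1.35 to 2.12), or 3.34-fold, at an FDR of 0.000627 by limma and on 94 to 480 reads per library. HES1 kept its call in all 20 alternative analyses, 1 of which, the minimum mean of 5 FPKM, it passed through its level in MIR21-KO. The alternatives gave log2 fold changes of 1.56 to 1.87 and FDRs of 4.45e-05 to 0.0062 by limma or voom.

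HES4 (ENSG00000188290, chromosome 1, 998962 to 1000172, minus strand), a close relative of HES1, was at 7.24, 9.23 and 6.93 FPKM in Ctrl and at 19.0, 14.0 and 11.5 FPKM in MIR21-KO. Here too all MIR21-KO values were above all Ctrl values, but they differed more among themselves. HES4 had a log2 fold change of 0.90 ± 0.199 (95% interval 0.42 to 1.37) with an FDR of 0.0153 by limma, which narrowly missed the threshold. HES4 was called in 7 of 20 alternatives, over which its FDR ran from 0.00166 to 0.0599. The FDR was 0.0589, 0.0599 and 0.0528 by limma without Ctrl replicate 1, Ctrl replicate 3 or MIR21-KO replicate 2. Its calls were made, among others, with voom on the recovered reads (FDR 0.00728, with 21.8% of all genes called), among protein-coding genes only (FDR 0.00490, with 27.8% called) and without MIR21-KO replicate 3 (FDR 0.00614).

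The promoters of HES1 and HES4 are shown because both encode effectors that were higher in MIR21-KO without overlap between the groups, and because both hold the same heptamer. The windows are the 250 bases before the start of the gene (RefSeq, GRCh38.p14), with capitals marking GTGGGAA, the core to which RBPJ binds.
HES1, chr3:194135898-194136147, plus strand: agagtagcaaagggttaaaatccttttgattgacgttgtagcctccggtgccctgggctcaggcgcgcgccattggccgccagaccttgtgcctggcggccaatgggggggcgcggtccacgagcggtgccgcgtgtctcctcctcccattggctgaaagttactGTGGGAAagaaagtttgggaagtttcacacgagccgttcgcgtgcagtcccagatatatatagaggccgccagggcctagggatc
HES4, chr1:1000098-1000347, minus strand: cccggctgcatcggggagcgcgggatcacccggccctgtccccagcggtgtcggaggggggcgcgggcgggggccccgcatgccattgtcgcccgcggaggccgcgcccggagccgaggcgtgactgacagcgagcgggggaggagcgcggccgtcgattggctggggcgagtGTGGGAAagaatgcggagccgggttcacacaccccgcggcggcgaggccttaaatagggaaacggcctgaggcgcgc
The heptamer started 85 bases before the RefSeq start of HES1 and 77 bases before that of HES4. GENCODE places the start of HES4 at 1000172, inside the window shown, so its distance depends on the annotation. Searched on both strands, GTGGGAA was present in 5.43% of 35116 promoter windows of the same length. Promoter windows were found for 8 of the 10 Notch genes, and besides HES1 and HES4 only RBPJ held the heptamer, in 1 of its 5 windows. The N-box CACNAG, at which HES proteins bind, was found for 3 of the 8 Notch genes with a window, NOTCH3, HES1 and RBPJ, and in 32.0% of all windows. It occurred 3 times in the HES1 window. The E-box CACGTG, found in 6.34% of all windows, was in none of the Notch gene windows. A match is a description of the sequence, and occupancy was not measured.

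HEY1 (ENSG00000164683, chromosome 8, 79764010 to 79767863, minus strand), a hairy-related repressor, was low with 6, 2 and 8 reads in Ctrl and 25, 18 and 12 reads in MIR21-KO. This amounted to 0.146, 0.0575 and 0.181 FPKM against 0.568, 0.455 and 0.286 FPKM. The groups did not overlap. Without the expression filter the log2 fold change on log2(FPKM + 0.1) was 1.24 at an FDR of 0.0776 by limma (6.16% of all genes called). HEY1 passed a minimum mean of 10 reads through its level in MIR21-KO. Its FDR there was 0.0148 by limma (3245 of 15795 genes called), so HEY1 was called in neither.

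The order of levels differed between the groups in the places of HES1 and NOTCH1. By mean FPKM, the order in Ctrl was JAG1, HES4, NOTCH2, HES1, RBPJ, NOTCH1, JAG2, NOTCH3, HEY1 and DLL1. Within it, the ranges of NOTCH2 and HES1, of HES1 and RBPJ, and of RBPJ and NOTCH1 overlapped, while the other neighbours were separated in all libraries. In MIR21-KO the order was JAG1, HES1, HES4, NOTCH2, RBPJ, JAG2, NOTCH1, NOTCH3, HEY1 and DLL1. The ranges of JAG1, HES1 and HES4 then overlapped in turn, as did those of JAG2, NOTCH1 and NOTCH3, so that NOTCH1 moved from the level of RBPJ to that of NOTCH3.

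The MIR21-KO libraries differed among themselves in a way that moved with GC content. In tested genes with over 53.7% GC, the median deviation from the group mean on the log2 scale was 0.13, 0.04 and -0.16 in MIR21-KO replicates 1, 2 and 3. In genes with at most 44.3% GC it was -0.11, -0.02 and 0.14, while the Ctrl libraries stayed between -0.04 and 0.04 in both classes. Among the Notch genes, the GC-rich HES4 (73.9% GC) was highest in MIR21-KO replicate 1, and the GC-poor RBPJ (38.0% GC) was highest in replicate 3. NOTCH1 (62.9% GC) and NOTCH3 (63.1% GC), although GC-rich, were also highest in replicate 3. Once the trend of every library with GC content and length was removed, the range among MIR21-KO libraries narrowed from 0.72 to 0.15 for HES4 and from 0.51 to 0.09 for RBPJ on the log2 scale. HES4 was then called at a log2 fold change of 0.68 (FDR 0.00166 by limma) and JAG2 at -0.49 (FDR 0.00699 by limma). HES1 and NOTCH1 remained called, at 1.70 and -0.99, whereas 24.8% of all genes were called in that analysis. The sign of RBPJ became positive (0.13, FDR 0.218 by limma). The range of JAG1 narrowed less, from 0.67 to 0.55, and those of NOTCH1 and NOTCH3 widened from 0.36 to 0.49 and from 0.14 to 0.29.

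**Figure D3:**
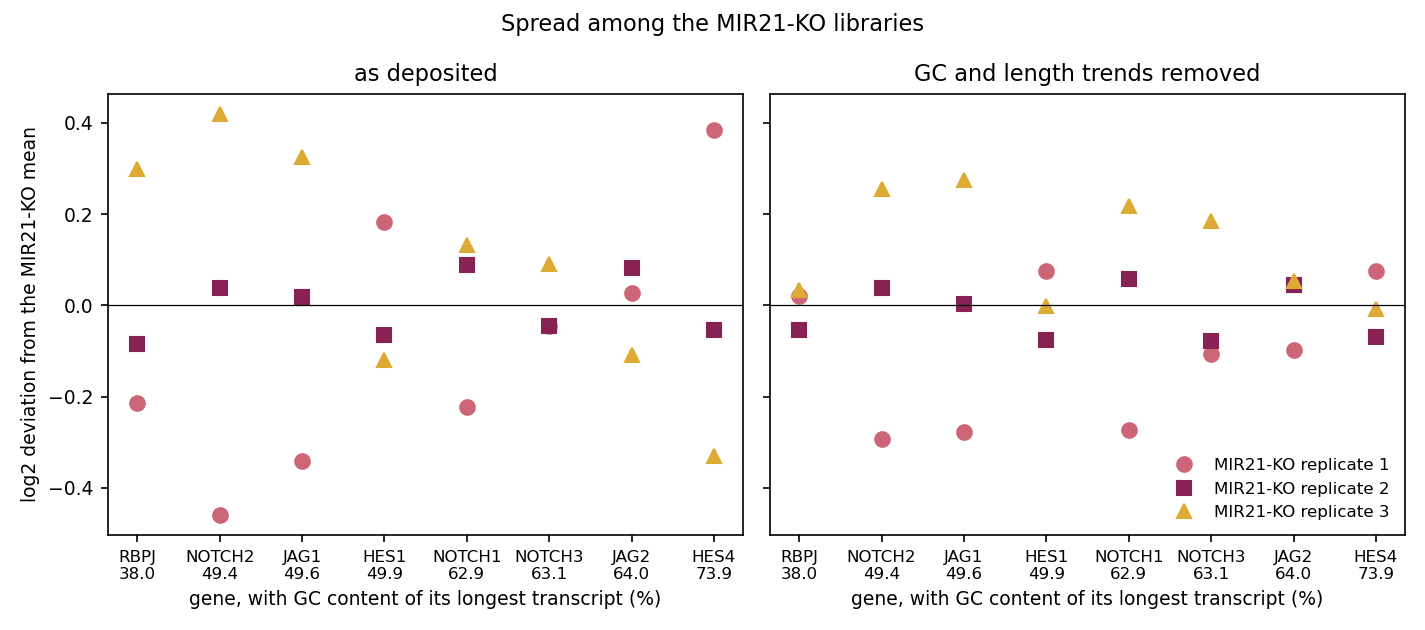
Deviation of each MIR21-KO library from the MIR21-KO mean (vertical axis, log2 scale) for the 8 tested Notch genes, ordered by GC content of the longest transcript, as deposited (left) and after removal of each library's GC and length trend (right), with circles, squares and triangles for replicates 1, 2 and 3. As deposited, replicate 3 was highest for RBPJ, NOTCH2, JAG1, NOTCH1 and NOTCH3 and lowest for HES1, JAG2 and HES4, and the range of HES4 narrowed from 0.72 to 0.15 and that of RBPJ from 0.51 to 0.09.

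Further genes of the pathway were followed in lists of 80 genes, of which 63 were tested and 15 were called, 10 higher and 5 lower in MIR21-KO. This was 23.8%, compared to 16.0% of all genes tested and 19.7% of the protein-coding genes among them. The count was 7 or 8 without any one of the Ctrl replicates or without MIR21-KO replicate 2. Calls that held in all 20 alternatives were those of MFAP2, DNER, FURIN, TLE1, SNAI2 and CCND1, although MFAP2, DNER and SNAI2 passed the minimum mean of 5 FPKM through their levels in MIR21-KO.

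Among 9 further receptors and ligands, 5 were tested and 2 were higher (40.0%, against 16.0% of all genes tested called). MFAP2, a microfibril-associated glycoprotein that can bind Notch receptors, was at 0.782, 0.447 and 0.652 FPKM in Ctrl and at 15.8, 13.0 and 12.2 FPKM in MIR21-KO. MFAP2 thus rose by 4.26 ± 0.202 on the log2 scale (FDR 6.44e-05 by limma). DNER, a transmembrane noncanonical ligand, was at 2.93, 2.93 and 2.90 FPKM in Ctrl and at 7.83, 7.87 and 8.35 FPKM in MIR21-KO, a log2 fold change of 1.43 ± 0.0835 (FDR 0.000122 by limma). Both were higher in every MIR21-KO library. CNTN1, a contactin described as a noncanonical ligand, had 32.7 ± 2.04 and 20.4 ± 4.21 FPKM (log2 fold change -0.70, FDR 0.0136), and DLL3 had 4.82 ± 0.412 and 4.36 ± 1.26 FPKM (-0.18, FDR 0.566), and neither was called by limma.

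All 6 genes of receptor maturation had positive log2 fold changes, as did 48.5% of all genes tested, with a median of 0.40. Only FURIN was called (16.7%, against 16.0% of all genes tested). FURIN, the convertase that cleaves Notch receptors on their way to the surface, went from 14.8 ± 0.0277 to 29.4 ± 1.39 FPKM (log2 fold change 0.99, FDR 0.000202 by limma). POFUT1, which adds fucose to the receptors, and the fringe enzyme RFNG had log2 fold changes of 0.02 (FDR 0.878) and 0.50 (FDR 0.0315). Of 8 genes of receptor cleavage, the gamma-secretase subunits APH1B and NCSTN were called (25.0%, against 16.0% of all genes tested). Both rose, with log2 fold changes of 1.04 (FDR 0.00139 by limma) and 0.43 (FDR 0.00336 by limma). The subunits APH1A and PSENEN had 0.24 (FDR 0.108) and -0.03 (FDR 0.912), and the median of the list was -0.09. APH1B increased from 4.37 ± 0.377 to 9.10 ± 1.15 FPKM, and NCSTN from 18.5 ± 0.483 to 25.0 ± 0.545 FPKM. The call of NCSTN was lost in 7 of 20 alternatives and that of APH1B in 1. ADAM10, a protease of the same list, was at 12.9 ± 1.07 FPKM in Ctrl and lower without overlap in MIR21-KO, at 8.55 ± 1.51 FPKM. Its log2 fold change of -0.60 was not called by limma (FDR 0.0175) but was called by voom on recovered reads.

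None of 7 nuclear coactivators was called by limma, with 3 (MAML1, MAML3 and SNW1) at an unadjusted p under 0.05, a level met by 43.2% of all genes tested, 1 (MAML3) called by voom on recovered reads and a median log2 fold change of -0.31. The most abundant, SNW1 and the acetyltransferase KAT2A, had -0.31 (FDR 0.0244 by limma) and -0.02 (FDR 0.943 by limma). At an FDR under 0.05, 2 of the 7 were called, where 32.0% of all genes tested were called. Among 14 corepressors, 2 rose and 2 fell (28.6% called, against 16.0% of all genes tested). All 4 belonged to the TLE family, the Groucho-related proteins that HES factors recruit. TLE1 fell from 21.3 to 9.40 FPKM on average (log2 fold change -1.17, FDR 0.000472 by limma) and TLE4 from 5.79 to 3.62 FPKM (-0.67, FDR 0.00843). TLE2 rose from 0.631 to 1.63 FPKM (1.23, FDR 0.00522) and TLE3 from 2.1 to 4.13 FPKM (0.95, FDR 0.00351). The calls of TLE2, TLE3 and TLE4 were lost in 7, 6 and 11 of 19 alternatives. HDAC1, a histone deacetylase, was not called (log2 fold change -0.29).

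Among 13 genes of ligand endocytosis, ubiquitination and inhibition, 11 were tested and 2 were called (18.2%, against 16.0% of all genes tested). NEURL1B, an E3 ligase that acts on ligands, rose from 2.65 ± 0.242 to 4.29 ± 0.315 FPKM (log2 fold change 0.68, FDR 0.00609 by limma). DTX2, a deltex ligase that binds Notch receptors, fell from 12.5 ± 0.403 to 8.06 ± 0.951 FPKM (-0.63, FDR 0.00508 by limma). ITCH and NUMBL, with -0.38 (FDR 0.138) and 0.29 (FDR 0.0718), were not called. Each of the calls of NEURL1B and DTX2 was lost in 7 alternatives.

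Of 7 other HES and HEY factors, 3 were tested and none was called by limma, with 1, HEYL, at an unadjusted p under 0.05 (43.2% of all genes tested) and also called by voom on recovered reads. HEYL was at 2.32, 2.11 and 2.08 FPKM in Ctrl and at 1.32, 1.47 and 0.990 FPKM in MIR21-KO, lower in all libraries (log2 fold change -0.75, FDR 0.0194 by limma). HES6, a relative that antagonizes HES1, had -0.17 (FDR 0.673). HES3 and HEY2 were listed at 0.

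Reported Notch targets outside that family went in both directions, with 2 higher and 2 lower of 8 tested. SNAI2, a repressor of epithelial genes, rose from 4.30 ± 0.285 to 15.9 ± 0.579 FPKM (log2 fold change 1.86, FDR 4.95e-05 by limma). SOX9, a transcription factor of lung progenitors, rose from 9.56 ± 1.09 to 15.3 ± 1.04 FPKM (0.68, FDR 0.00404 by limma). The call of SOX9 was lost in 6 of 20 alternatives. CCND1, encoding cyclin D1, fell from 78.6 ± 3.02 to 26.8 ± 1.52 FPKM (-1.55, FDR 6.44e-05 by limma). NRARP, a feedback inhibitor that is itself induced by Notch, was at 1.46, 2.36 and 2.02 FPKM in Ctrl and at 0.829, 0.877 and 0.871 FPKM in MIR21-KO. The log2 fold change of NRARP was -1.07 (FDR 0.00900 by limma), opposite in direction to that of HES1, and its call rested on 19 to 49 reads per library and was lost in 11 of 19 alternatives. ID3 and CDKN1A were not called (0.19 and 0.27). Beside SNAI2, the epithelial marker CDH1 fell from 8.18 ± 0.584 to 2.86 ± 0.148 FPKM (FDR 0.000175 by limma). No other of the 6 epithelial markers was called. Log2 fold changes of the others were 0.10 for KRT7 and 0.29 for KRT19, and -0.23 for KRT8, -0.69 for KRT18 and -0.68 for EPCAM. The summed epithelial markers were at 1684 to 1807 FPKM in Ctrl and 1217 to 1745 FPKM in MIR21-KO. The 4 fibroblast markers summed to 2.24 to 2.26 FPKM in Ctrl and 2.09 to 3.22 FPKM in MIR21-KO, of which LUM, a matrix proteoglycan, gave at most 2.41. Of the others, the collagen gene COL3A1 was at 0.0577 to 0.191 FPKM in Ctrl and 0.540 to 0.634 FPKM in MIR21-KO, and the growth factor receptor gene PDGFRB was at 0.0110 to 0.0391 and 0.0823 to 0.162 FPKM. Both were under the expression filter, on 5 to 56 reads for COL3A1 and 1 to 15 for PDGFRB. They did not overlap between the groups, as held for 48.1% of all genes tested. LUM was not called (log2 fold change -0.19, FDR 0.506 by limma), and DCN had at most 3 reads in any library. The part of these markers in the Notch values was not tested.

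Genes of neuroendocrine cells that HES1 is reported to repress were low in both groups. INSM1 was at 0 in all libraries, and of 6 listed only SYP was tested, with 0.723 ± 0.0861 FPKM in Ctrl and 0.755 ± 0.237 FPKM after deletion (log2 fold change 0.02, FDR 0.959 by limma). A lower level of INSM1 was therefore not measurable in these cells. DDC, encoding the decarboxylase that makes dopamine and serotonin, had 10, 16 and 7 reads in Ctrl (0.251, 0.474 and 0.163 FPKM) and 0 in each MIR21-KO library. It was under the expression filter and thus not tested, and a count of 0 allows up to 3 reads per library. CHGA, of the same list and also under the filter, had 5, 1 and 12 reads in Ctrl and 6, 5 and 7 reads in MIR21-KO. Its groups overlapped, at 0.146 ± 0.128 and 0.149 ± 0.0221 FPKM.

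**Figure D4:**
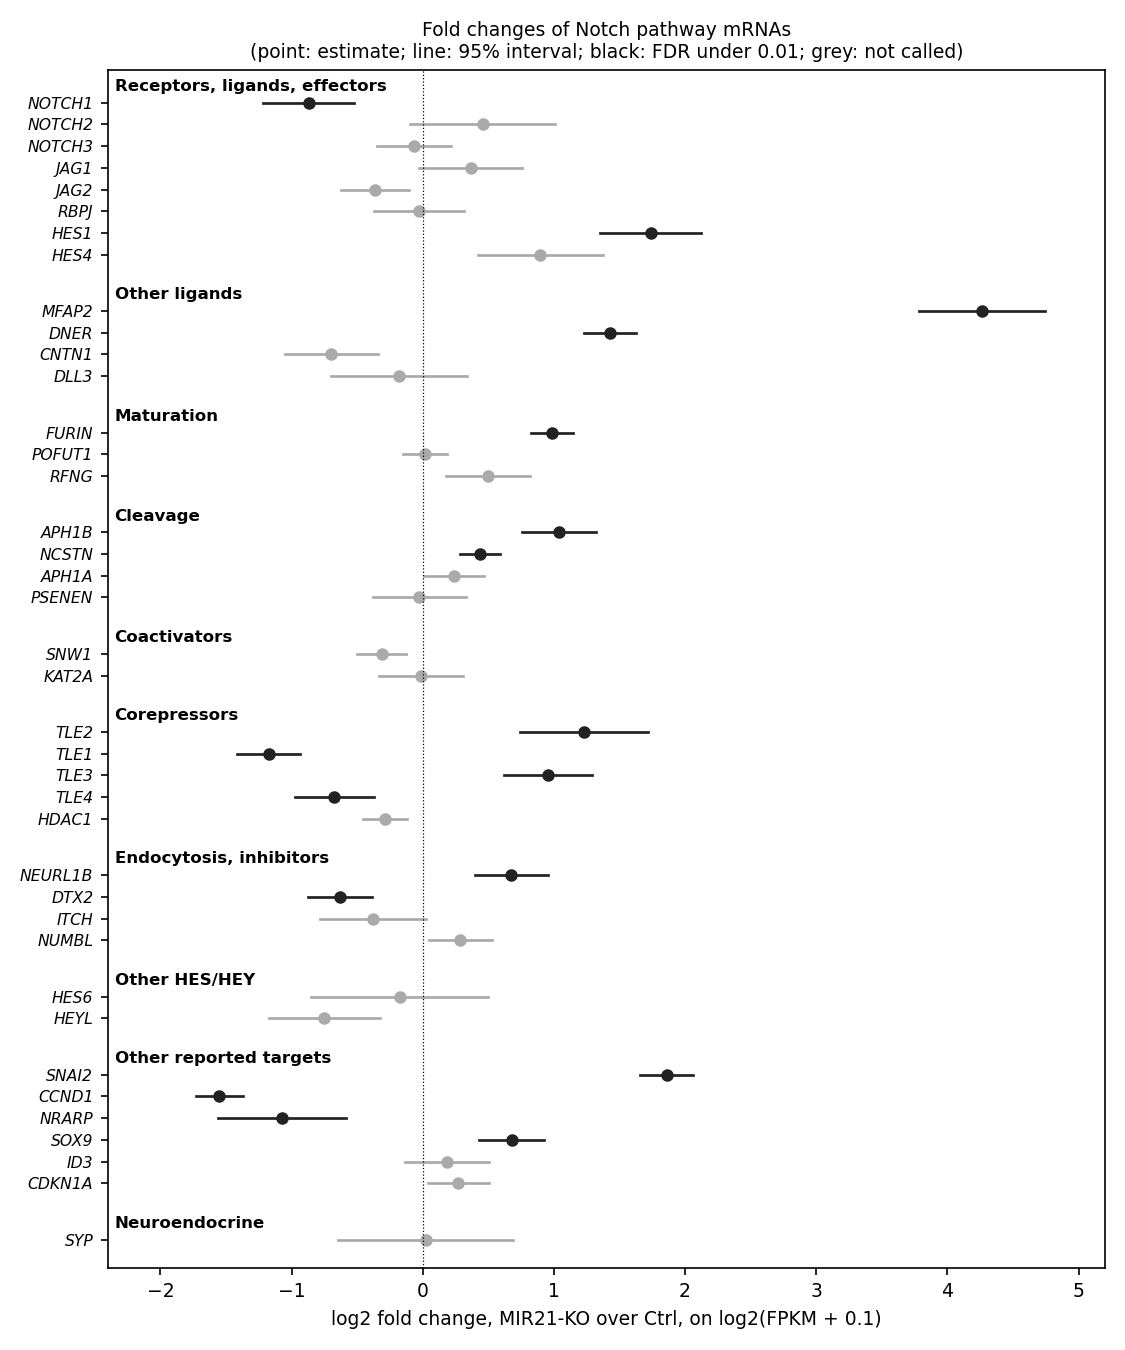
Log2 fold change of MIR21-KO over Ctrl (horizontal axis, on log2(FPKM + 0.1)) for the tested Notch genes and further pathway genes by role, with points for estimates, lines for 95% intervals, black for FDR under 0.01 and grey for genes not called. HES1 at 1.74 and NOTCH1 at -0.87 were the called members, and MFAP2 at 4.26 and CCND1 at -1.55 were the largest rise and fall among the genes drawn.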

How the data were processed

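PolyA RNA-seq libraries of A549 cells were grouped by their titles into Ctrl and MIR21-KO (n = 3 each). Oligo(dT) beads were used for enrichment, and libraries were strand-specific per the labels. The submitters' processing notes name cutadapt 1.14, HISAT2 2.1.0, SAMtools 1.5, featureCounts 1.5.3, edgeR 3.18.1 and hg38. The annotation release, the strand setting of the counting and the treatment of shared reads are not given in the sources used here. The authors deposited FPKM values per gene and library for 58174 genes, together with their own fold changes, p-values and FDRs, which were not used. Columns of no sample numbered 0 among those used. FPKM times gene length gave whole multiples of one step in each library, so that reads were recovered for 100% of values (tolerance 0.001), and the library sizes behind the FPKM were 0.950 to 1.03 times the summed reads. 

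A mean of 0.5 FPKM or more was required. Values were fitted as log2(FPKM + 0.1) by limma 3.58.1 under R 4.3.3 (eBayes with trend and robust fitting, no covariate, two-sided), adjusted by Benjamini-Hochberg over all 16006 genes, and called at an FDR under 0.01. A fold change on this scale understates that of low genes. Shares of summed FPKM were compared by exact permutation tests (SciPy 1.17.1). The study calls its samples independent but does not state whether the MIR21-KO libraries were from separate clones, so that p-values measure the spread between these libraries, which may be technical in part. No pair of libraries agreed within sampling noise (lowest chi-square per degree of freedom 2.58). In simulated data of the same 16006 genes and depths, the MIR21-KO against Ctrl comparison recovered 81 of 100 genes changed 2-fold and 100 of 100 changed 4-fold, with 3 false calls. The changed genes were drawn above a minimum of reads, every gene had the same dispersion (0.01), and no GC trend was put in. The simulation therefore does not cover genes with few reads or the GC-related spread of the MIR21-KO libraries.

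The members and the pathway lists were chosen with earlier results of these data known. Named were all members, MIR21, VMP1 and, per further list, up to 5 called genes by size of change and up to 2 genes not called by highest mean FPKM, of which 1 is not reported here. NOTCH2NL, FAM120B, RBPJL, CDH1, EPCAM, NOTCH4, DLL4, INSM1, MAML1, MAML3, HES3, HEY2, ABCA3, LUM, COL3A1, PDGFRB, DDC, DCN, CHGA and ADAM10 were named after their values were seen, as copies, overlaps, markers, low or undetected genes, or further genes of the lists. Coordinates, GC content and 3′ UTRs of at least 30 bases came from GENCODE 29 (GRCh38), which matched 99.42% of gene identifiers. A GC content was found for 99.68% of tested genes. Alternatives were other pseudocounts (1 and 0.01), no filter, minimum means of 5 FPKM or 10 reads, median-ratio and total-read scaling, limma without trend and robust fitting, voom on recovered reads, an FDR under 0.05, protein-coding genes only, a replicate block, removal of GC and length trends per library (lowess, span 0.3) alone and with the block, and leaving out each library.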

Additional observations from a re-analysis of the deposited data

How the results depend on the processing

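The 2568 genes called became 5114 at an FDR under 0.05, 3960 with the GC and length trend removed, and 768 to 3400 without one library. The share of calls that were higher was 47.7%, compared to 39.2% with a minimum mean of 5 FPKM and 56.6 to 57.8% without a Ctrl library. The number of Notch genes called was 2, and it became 1 without a filter or with a minimum mean of 5 FPKM, 4 at an FDR under 0.05, 4 with the GC and length trend removed, and 1 to 3 without one library. The 15 further pathway genes called became 31 at an FDR under 0.05, 23 among protein-coding genes only, 25 with the GC and length trend removed, and 7 to 20 without one library. The FDR threshold changes the number of calls by construction, and under the minimum mean of 5 FPKM NOTCH1 (mean 3.09 FPKM) was not tested. Leaving out a library reduces the number of samples, but without MIR21-KO replicate 3 the genes called rose to 3400. Apart from the FDR threshold and that minimum mean, the cause was not tested.

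Libraries with the same replicate number did not deviate together (correlations of -0.17, -0.02 and -0.02), so no pairing by number was seen. This does not exclude a pairing, because the deviations also hold the GC trend of the MIR21-KO libraries. Blocking on the replicate number left 651 calls, 58.2% of them higher, with 1 Notch gene (HES1) and 6 further pathway genes. NOTCH1 then had an FDR of 0.0326, and 0.0185 when the block was combined with the GC and length trend. The exact sign-flip p over paired differences was 0.25 for the NOTCH2 share and 0.5 for the JAG1 share. Over all libraries left out in turn, the NOTCH2 share differed by 14.5 to 19.4 percentage points and the JAG1 share by 3.94 to 12.8, and with reads in place of FPKM by 14.7 and 6.41.

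The log2 fold changes that changed sign were all small. RBPJ became 0.13 with the GC and length trend removed, with or without the block, and ranged from -0.18 to 0.0766 without one library. POFUT1 became -0.0195 with total-read scaling and -0.0021 with the trend removed, with or without the block, and ranged from -0.0282 to 0.0518 without one library. KAT2A became 0.0035 with median-ratio scaling and ranged from -0.12 to 0.13. SYP became -0.0099 with total-read scaling and -0.078 with the trend removed, with or without the block, and ranged from -0.19 to 0.21. Without one library, DLL3 ranged from -0.36 to 0.0607, PSENEN from -0.18 to 0.0905 and HES6 from -0.36 to 0.10. Scaling moved the median of all genes by 0.02 (median-ratio) and -0.04 (total reads). Seed matches counted over any annotated 3′ UTR were again found in 4 Notch genes. Depth limits DLL1 and HEY1, with at most 11 and 25 reads in any library.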
